A study of Rattus norvegicus with 20 samples.

Results

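A set of 9 classic target genes of the p53 tumour suppressor was followed in rat liver across increasing doses of IDDP, isodecyl diphenyl phosphate, a plasticiser and flame retardant of the organophosphate type. The genes were Cdkn1a, Mdm2, Phlda3, Fas, Ccng1, Gdf15, Btg2, Bax and Tp53inp1, and they were read from every probe set that the array annotation assigned to exactly 1 of these symbols. A probe set is a group of short oligonucleotides on the array that together report 1 stretch of transcript. Of the 9 genes, 7 were found, with 12 probe sets, among 14217 named genes on the array: Mdm2 and Fas had 3 each, Cdkn1a had 2, and Phlda3, Ccng1, Gdf15 and Tp53inp1 had 1 each. Bax had 1 probe set, shared with another symbol, and Btg2 had no named one, so neither gene was analysed here.

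The rats were male Harlan Sprague Dawley animals given the chemical in corn oil by gavage once a day on 4 days, and the left lobe of the liver was taken the next day. Each of the dose levels 66, 132, 263.6, 527.1 and 1054.2 mg/kg had 3 rats, the controls were 5 rats that received corn oil alone, and every liver was measured on 1 Affymetrix array. The labels name no genetic alteration and give no age. All values are log2 intensities, so a difference of 1 is a doubling.

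The p53 protein is a transcription factor that is stabilised after DNA damage and other stresses and then switches on genes for cell cycle arrest, DNA repair and cell death. Its target Cdkn1a encodes p21, an inhibitor of cyclin-dependent kinases that halts the cell cycle, and its target Mdm2 encodes the ubiquitin ligase that marks p53 for destruction, which closes a feedback loop. In liver, p21 restrains hepatocyte division, for instance during regeneration, and the gene is also controlled by factors other than p53.

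The livers carried the hepatocyte signature: the 6 measured hepatocyte markers, among them albumin, averaged 14.63 to 14.67 on the log2 scale in the 5 controls, and none passed a test at 527.1 or 1054.2 mg/kg. The array medians lay between 6.31 and 6.41, and every pair of arrays correlated at 0.978 to 0.996 over all probe sets. The 3'-minus-5' signal gap of the actin and GAPDH quality controls, which grows as RNA degrades, averaged 1.64 ± 0.27 (SD, n = 5) in controls and 1.68 ± 0.11 (SD, n = 3) at 1054.2 mg/kg. Its highest value, 3.25, was in 132 mg/kg replicate 2.

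Some of the p53 targets fell and others rose. At 1054.2 mg/kg, 4 of the 7 genes differed from control: Cdkn1a and Phlda3 fell, and Mdm2 and Fas rose, each by at least 1 probe set. Cdkn1a fell 4.41-fold, a log2 change of -2.14 ± 0.24 (SE), whereas Mdm2 rose 1.57-fold, a log2 change of 0.65 ± 0.10 (SE). Over all named genes, 5.28% had a probe set past the threshold at that dose, 2.96% higher and 2.32% lower. Ccng1, Gdf15 and Tp53inp1 did not pass.

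At 527.1 mg/kg, 2 of the 7 genes passed, Cdkn1a lower and Mdm2 higher, against 2.82% of all named genes, 2.08% higher and 0.739% lower. None passed at 66, 132 or 263.6 mg/kg, where 0.0141%, 0.113% and 0.717% of all genes passed. By limma at an unadjusted p under 0.05, 1, 2 and 3 of the 12 probe sets differed at these doses, against 3.24%, 14.9% and 11.9% of all probe sets. For each dose, limma compared the group with the same 5 controls in a model of all 20 arrays, and p-values were adjusted by Benjamini-Hochberg over 31042 probe sets with a threshold of 0.05.

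A slope over the 6 dose ranks passed for 5 of the 7 genes, against 8.3% of all genes, 4.94% higher and 3.36% lower: Mdm2, Fas and Tp53inp1 rose with dose, and Cdkn1a and Phlda3 fell. The median change of the 7 genes at 1054.2 mg/kg, each by its brightest probe set, was 0.30 against 0.00 over all genes, and the median size of change regardless of sign was 0.59 against 0.12. At 527.1 mg/kg the median size was 0.43 against 0.12. The comparisons at different doses share their controls and are not independent.

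**Figure D1:**
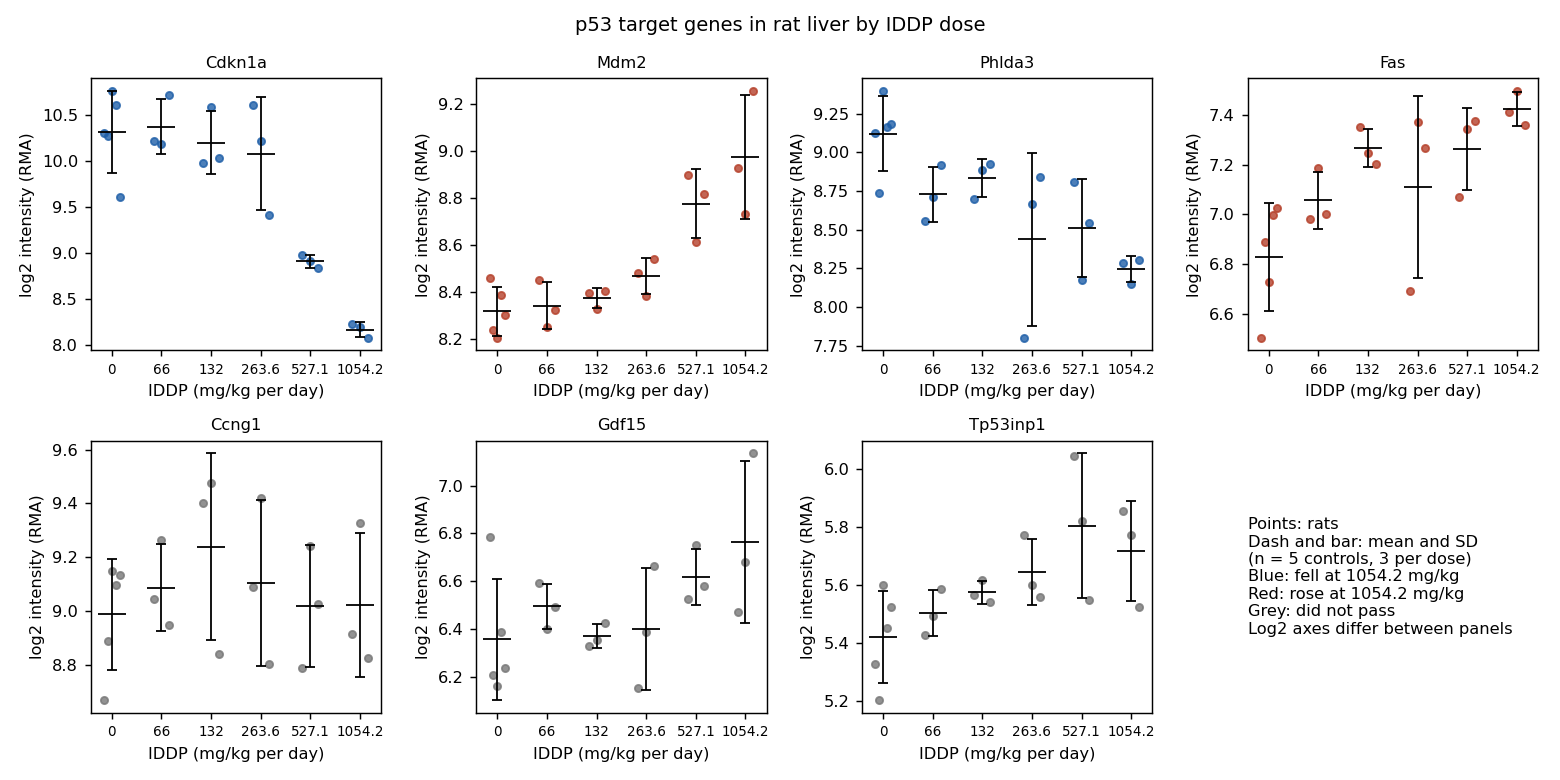
Log2 intensity of the brightest probe set of each of the 7 genes (vertical axes, which differ between panels) in each rat by IDDP dose in mg/kg per day (horizontal axes); dashes and bars are the group mean and SD, n = 5 controls and 3 rats per dose. Cdkn1a falls below every control at the 2 highest doses and Mdm2 lies above every control at the same doses, while the points of Ccng1 overlap at all doses.

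Cdkn1a was the member with the largest change at the 2 highest doses. Its brighter probe set, 1388674_at, was brighter on average than 90.3% of all probe sets. It read 10.31, 10.28, 10.76, 10.61 and 9.61 in the 5 controls. The rats at 66 mg/kg gave 10.21, 10.18 and 10.71, those at 132 mg/kg 9.97, 10.59 and 10.03, and those at 263.6 mg/kg 10.61, 10.22 and 9.41. Up to 263.6 mg/kg the values thus overlapped the controls, with a single rat, 263.6 mg/kg replicate 3, below the lowest of them. At 527.1 mg/kg the values were 8.98, 8.91 and 8.84, and at 1054.2 mg/kg they were 8.23, 8.20 and 8.08. All 6 of these rats lay below every control, and no value of one dose overlapped the other.

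The log2 change in Cdkn1a from control was -1.40 ± 0.24 (SE) at 527.1 mg/kg (limma adjusted p = 0.00371) and -2.14 ± 0.24 (SE) at 1054.2 mg/kg (limma adjusted p = 2.57e-05). The means ran from 10.37 at 66 mg/kg through 10.31 in controls, 10.20 at 132 mg/kg and 10.08 at 263.6 mg/kg down to 8.91 and 8.17 at the 2 highest doses. Between neighbouring doses, the step from 263.6 to 527.1 mg/kg was -1.17 ± 0.27 (SE), with a limma adjusted p of 0.406, in a comparison in which 0% of all genes passed. The step from 527.1 to 1054.2 mg/kg was -0.74 ± 0.27 (SE), with a limma adjusted p of 0.683 and 0.0281% of all genes past the threshold. No member passed either step, and at an unadjusted p under 0.05 in limma 4 and 2 of the 12 probe sets did, against 5.83% and 6.08% of all probe sets. The slope was -0.40 per dose rank (limma adjusted p = 0.000147).

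The second probe set of Cdkn1a, 1387391_at, was dimmer and moved the same way by a smaller amount. It read 6.49, 6.51, 6.56, 6.06 and 6.31 in controls, 5.75, 5.76 and 5.83 at 527.1 mg/kg and 5.89, 5.54 and 5.47 at 1054.2 mg/kg. Again all 6 rats of the 2 highest doses lay below all 5 controls. The log2 change was -0.61 ± 0.13 (SE) at 527.1 mg/kg (limma adjusted p = 0.0236) and -0.75 ± 0.13 (SE) at 1054.2 mg/kg (limma adjusted p = 0.00302). The call at 527.1 mg/kg was lost when control replicate 1, 2 or 3, or any of the 3 dosed rats, was left out, with limma adjusted p between 0.0555 and 0.104. The call of the brighter probe set was kept at both doses whichever rat was left out.

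The upstream sequence of rat Cdkn1a holds a stretch of p53-like motif, shown here with 2 other promoters of members that passed at 1054.2 mg/kg. A p53 response element is a pair of decameric half-sites, and the core searched was CNNG, where N is A or T, with purines before it and pyrimidines after it, on both strands. The sequences come from RefSeq windows on the GRCr8 assembly, from 250 bases before to 50 after an annotated transcript start, and are printed on the gene strand up to the start of the gene. Capitals mark the pair of half-sites.

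Cdkn1a, chr20:7150682-7150819, plus strand: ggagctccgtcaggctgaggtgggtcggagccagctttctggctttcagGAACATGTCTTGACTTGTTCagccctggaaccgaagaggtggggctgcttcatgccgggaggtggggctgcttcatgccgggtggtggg
Phlda3, chr13:49744753-49745002, plus strand: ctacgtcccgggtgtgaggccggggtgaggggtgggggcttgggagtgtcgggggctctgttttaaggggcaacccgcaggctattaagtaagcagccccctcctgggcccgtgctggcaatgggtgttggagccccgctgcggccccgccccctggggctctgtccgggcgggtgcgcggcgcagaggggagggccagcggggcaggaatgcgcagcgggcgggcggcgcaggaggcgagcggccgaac
Fas, chr1:241211905-241212154, plus strand: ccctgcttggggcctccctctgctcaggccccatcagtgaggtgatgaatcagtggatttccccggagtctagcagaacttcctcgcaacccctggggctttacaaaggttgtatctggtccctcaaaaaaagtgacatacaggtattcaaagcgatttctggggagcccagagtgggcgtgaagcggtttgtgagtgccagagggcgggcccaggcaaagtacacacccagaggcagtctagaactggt

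The Cdkn1a pair had no spacer and 1 mismatch outside the cores, and it began 201 bases before the annotated transcript start of its window. Among 33469 promoter windows of 300 bases, 0.350% held a pair with at most 1 such mismatch and a spacer of at most 13 bases, and 7.98% held a single perfect half-site. Of the 9 genes, 7 had a window in the table. The Ccng1 window held a perfect half-site and no such pair, and those of Mdm2, Phlda3, Fas, Gdf15 and Btg2 held neither. With up to 2 mismatches, 1.95% of all windows held a pair, and the Ccng1 window was then the only other member window with one. The limit of 1 mismatch was chosen after the Cdkn1a sequence had been seen. The match describes letters only, and p53 binding was not measured.

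Mdm2, the ligase that limits p53, moved opposite to Cdkn1a at the same doses. Its brightest probe set, 1383288_at, read 8.46, 8.24, 8.20, 8.38 and 8.30 in controls. The values were 8.45, 8.25 and 8.32 at 66 mg/kg, 8.39, 8.33 and 8.40 at 132 mg/kg, and 8.48, 8.38 and 8.54 at 263.6 mg/kg. They were 8.90, 8.61 and 8.82 at 527.1 mg/kg and 8.93, 8.73 and 9.25 at 1054.2 mg/kg. All 6 rats of the 2 highest doses were above every control, and these doses overlapped each other.

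The log2 change in 1383288_at was 0.46 ± 0.10 (SE) at 527.1 mg/kg (limma adjusted p = 0.0269) and 0.65 ± 0.10 (SE) at 1054.2 mg/kg (limma adjusted p = 0.000906). The group means of 1383288_at stood in the order of dose, from 8.32 in controls to 8.97 at the highest. Those of the other Mdm2 probe sets did not. The slope of 1383288_at was 0.13 per dose rank (limma adjusted p = 0.000321). The call at 527.1 mg/kg was lost without control replicate 2 or 3 (limma adjusted p = 0.0614 and 0.0737), without 527.1 mg/kg replicate 1 or 3 (0.144 and 0.111) and after a second quantile normalisation (0.0936).

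The 3 probe sets of Mdm2 did not give the same size of change. The second, 1384427_at, read 8.05, 7.91, 8.05, 8.07 and 7.93 in controls and 8.49, 8.84 and 9.0 at 1054.2 mg/kg, again without overlap. It rose by 0.78 ± 0.12 (SE) at 1054.2 mg/kg (limma adjusted p = 0.000922), and its value at 527.1 mg/kg was 0.46 ± 0.12 (SE; limma adjusted p = 0.0689). The third, 1383485_at, read 6.87, 6.87, 6.64, 6.35 and 6.73 in controls and 6.79, 6.88 and 6.80 at 1054.2 mg/kg, inside or just above the control range. Its difference of 0.13 ± 0.11 (SE) did not pass (limma adjusted p = 0.654), with a 95% interval from -0.10 to 0.36 that lies below the estimates of the other probe sets. At 66, 132 and 263.6 mg/kg the differences of 1383485_at were -0.15, -0.33 and -0.24, none past the threshold. Those of 1383288_at were 0.02, 0.06 and 0.15, and those of 1384427_at 0.01, 0.21 and 0.07, also short of it.

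**Figure D2:**
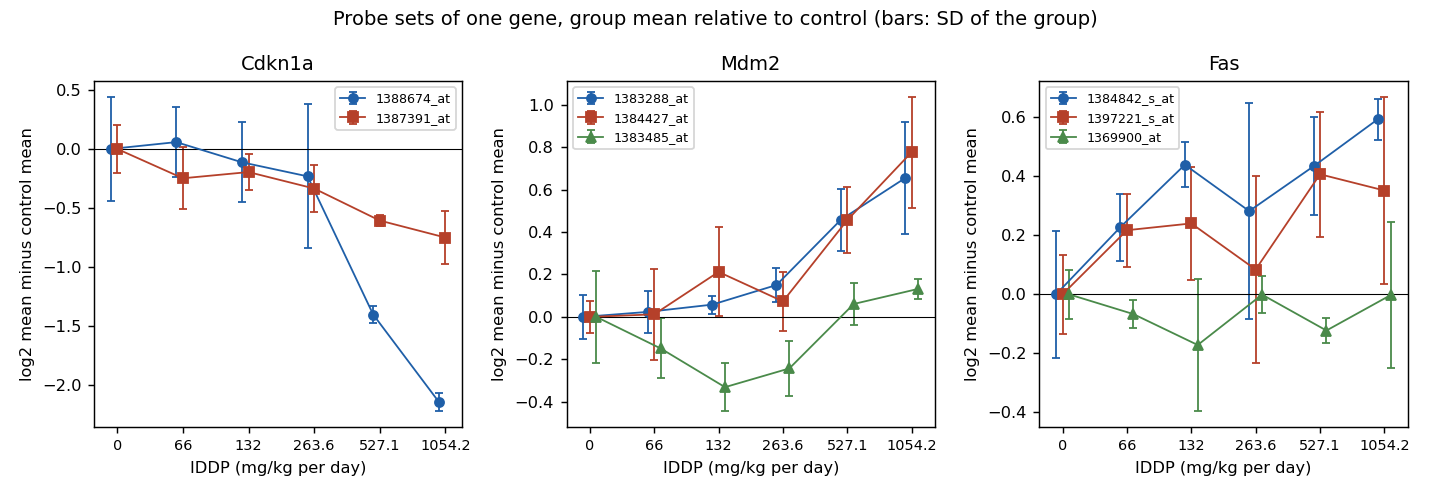
Group mean of each probe set minus its control mean (vertical axes, log2, which differ between panels) by IDDP dose in mg/kg per day (horizontal axes) for the 3 genes with several probe sets; bars are the SD of the group. At 1054.2 mg/kg both Cdkn1a probe sets are below 0, at -2.14 and -0.75, while the Mdm2 probe sets lie at 0.65, 0.78 and 0.13 and the Fas probe sets at 0.59, 0.35 and -0.00.

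Fas encodes a death receptor on the cell surface that starts apoptosis when its ligand binds. The brightest of its probe sets, 1384842_s_at, read 6.51, 6.89, 6.73, 7.0 and 7.03 in controls. At 66 mg/kg the values were 6.98, 7.19 and 7.0, at 132 mg/kg 7.35, 7.25 and 7.20, and at 263.6 mg/kg 6.69, 7.37 and 7.27. The 527.1 mg/kg rats gave 7.07, 7.34 and 7.37, and the 1054.2 mg/kg rats 7.41, 7.5 and 7.36. The rats at 132, 527.1 and 1054.2 mg/kg all lay above the controls, and 1 rat at 263.6 mg/kg lay among them.

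The log2 change in this Fas probe set was 0.59 ± 0.14 (SE) at 1054.2 mg/kg (limma adjusted p = 0.0187) and 0.43 ± 0.14 (SE) at 527.1 mg/kg (limma adjusted p = 0.127). At 132 mg/kg it was 0.44 ± 0.14 (SE), which did not pass (limma adjusted p = 0.177). The call at 1054.2 mg/kg was lost without 1054.2 mg/kg replicate 2 (limma adjusted p = 0.0920) or replicate 3 (0.0632). Its slope of 0.10 per dose rank passed (limma adjusted p = 0.00993), and without the controls it was 0.07 and did not pass (0.580). The other 2 Fas probe sets were dim, brighter than only 22.6% and 19.6% of all probe sets. They differed from control at 1054.2 mg/kg by 0.35 ± 0.15 (SE; limma adjusted p = 0.244) for 1397221_s_at and by -0.00 ± 0.11 (SE; limma adjusted p = 0.997) for 1369900_at, whose sign turned when the arrays were centred on their medians or quantile normalised again.

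Phlda3 encodes a small pleckstrin-homology protein that restrains Akt signalling, and it fell with dose as Cdkn1a did. Its probe set read 9.12, 8.74, 9.40, 9.16 and 9.18 in controls. It read 8.56, 8.71 and 8.91 at 66 mg/kg, 8.70, 8.88 and 8.92 at 132 mg/kg, and 7.80, 8.67 and 8.84 at 263.6 mg/kg. At 527.1 mg/kg the values were 8.81, 8.18 and 8.54, and at 1054.2 mg/kg 8.29, 8.15 and 8.30. Each dose group had at least 1 rat below the lowest control, and at 1054.2 mg/kg all 3 were.

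The Phlda3 change of -0.87 ± 0.19 (SE) at 1054.2 mg/kg, 1.83-fold lower, passed (limma adjusted p = 0.0116). The change of -0.61 ± 0.19 (SE) at 527.1 mg/kg did not pass (limma adjusted p = 0.112), nor did that of -0.68 ± 0.19 (SE) at 263.6 mg/kg (limma adjusted p = 0.115). The call at 1054.2 mg/kg was lost without 1054.2 mg/kg replicate 2 (limma adjusted p = 0.0627), and a call at 263.6 mg/kg appeared without 263.6 mg/kg replicate 3 (0.0493). Without 1054.2 mg/kg replicate 2, 2 of the 7 members passed at the highest dose, in place of 4. The slope was -0.16 per dose rank (limma adjusted p = 0.00334), and without the controls it was -0.13 and did not pass (0.383).

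Tp53inp1, which encodes a stress protein that works with p53 and in autophagy, was a dim member. It read 5.33, 5.20, 5.6, 5.45 and 5.52 in controls, 6.05, 5.82 and 5.55 at 527.1 mg/kg and 5.85, 5.77 and 5.52 at 1054.2 mg/kg. At each of these doses 2 rats lay above every control and 1 within the control range. The differences from control were 0.38 ± 0.11 (SE; limma adjusted p = 0.0929) and 0.30 ± 0.11 (SE; limma adjusted p = 0.184). The slope over dose ranks, 0.07, passed (limma adjusted p = 0.0222). That call was lost without control replicate 1 (0.0524) or 2 (0.0617), without all controls (0.488), with array weights (0.0555) and with the slope taken on mg/kg (0.137).

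Gdf15, a secreted stress hormone of the TGF-beta family, read 6.79, 6.21, 6.16, 6.39 and 6.24 in controls. It read 6.53, 6.75 and 6.58 at 527.1 mg/kg and 6.47, 6.68 and 7.14 at 1054.2 mg/kg. A single treated rat of these 6, 1054.2 mg/kg replicate 3, exceeded the highest control, replicate 1. The difference of 0.41 ± 0.15 (SE) at 1054.2 mg/kg did not pass (limma adjusted p = 0.162). It was 0.51 and passed without control replicate 1 (limma adjusted p = 0.0497), and it was 0.71 and passed with array weights (0.000112).

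Ccng1 encodes cyclin G1, a p53 target that works with a protein phosphatase on Mdm2. It read 8.67, 8.89, 9.15, 9.10 and 9.13 in controls and 8.92, 9.33 and 8.82 at 1054.2 mg/kg, with full overlap. Its difference from control was 0.03 ± 0.17 (SE) at 527.1 mg/kg (limma adjusted p = 0.967) and 0.03 ± 0.17 (SE) at 1054.2 mg/kg (limma adjusted p = 0.959). The 95% interval at 1054.2 mg/kg ran from -0.32 to 0.38, so smaller changes than these bounds could not be resolved with 3 rats. The sign of both differences turned after a second quantile normalisation.

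Counted over all 12 probe sets, the 1054.2 mg/kg rats and the controls did not overlap for 6, of which 3 were higher and 3 lower, where 12.4% of all probe sets had no overlap, 6.6% higher and 5.81% lower. At 527.1 mg/kg there were 7, of which 4 were higher and 3 lower, where 11.9% of all probe sets had none, 7.04% higher and 4.85% lower. Fas counted in both directions there, with 1384842_s_at and 1397221_s_at above all controls and the dim 1369900_at below them. In an exact permutation test over the 56 ways to split the control and 1054.2 mg/kg arrays (two-sided), the 6 probe sets without overlap reached p = 0.0179, the smallest the test allows. The exact p was 0.0357 for 1397221_s_at of Fas, 0.0714 for Tp53inp1, 0.107 for Gdf15, 0.411 for 1383485_at of Mdm2, 0.911 for Ccng1 and 0.982 for 1369900_at of Fas.

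**Figure D3:**
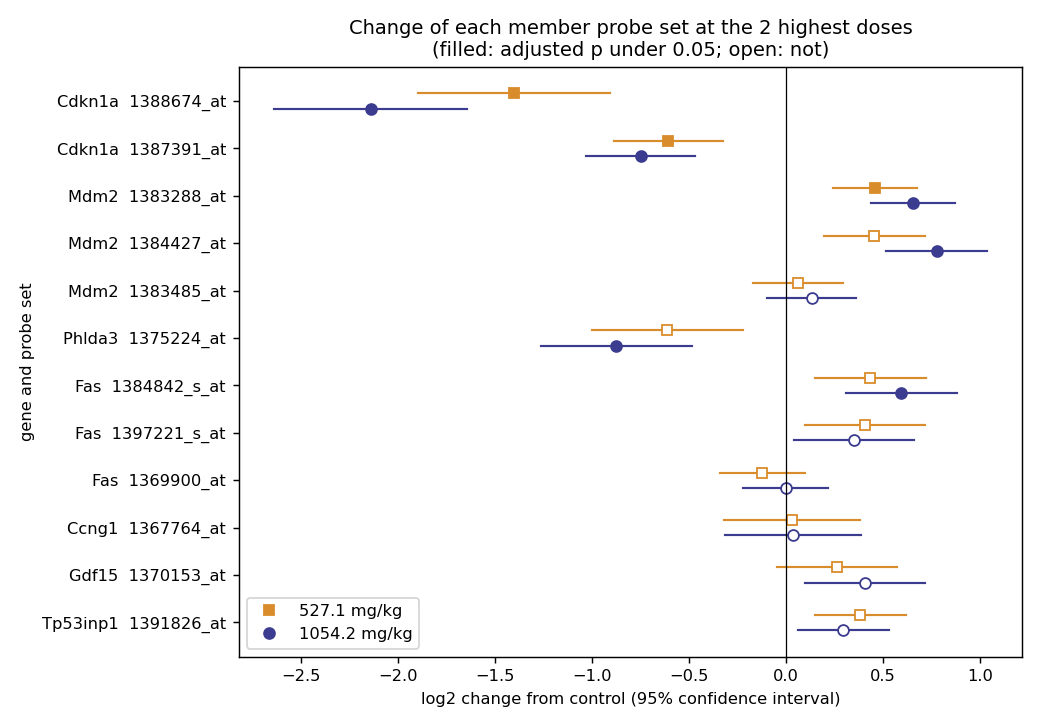
Log2 change from control (horizontal axis) of each of the 12 probe sets (vertical axis) at 527.1 mg/kg (squares) and 1054.2 mg/kg (circles); bars are 95% confidence intervals from limma and filled symbols have an adjusted p under 0.05. At 1054.2 mg/kg, 6 probe sets are filled: 2 of Cdkn1a and 1 of Phlda3 to the left of 0, and 2 of Mdm2 and 1 of Fas to the right.

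Genes beyond the members were read from 6 lists by the brightest probe set of each gene, and by that reading 2.6%, 4.83% and 7.58% of all named genes passed at 527.1 mg/kg, at 1054.2 mg/kg and in the slope. No share of all probe sets at an unadjusted p under 0.05 in limma is given here for these comparisons. The unadjusted counts of lists and markers in them are therefore given without a background, and no excess over all probe sets can be read from them. The machinery that sets p53 activity showed no call. Of 20 listed regulators of p53, 13 were measured, and none passed at 527.1 mg/kg, at 1054.2 mg/kg or in the slope, where 0, 3 and 2 of them had an unadjusted p under 0.05 in limma. Their median change at 1054.2 mg/kg was 0.13 against 0.00 over all genes. The largest was Mdm4, the Mdm2 relative that blocks p53, at 0.37 and an adjusted p of 0.323 in limma.

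Other p53 targets for arrest and cell death mostly stayed short of the threshold. Of 26 listed, 22 were measured, and 1 passed at 527.1 mg/kg: Bbc3, which encodes the pro-apoptotic protein PUMA, rose by 0.75 ± 0.14 (SE; limma adjusted p = 0.00658). Bbc3 stood 0.36 ± 0.14 (SE) above control at 1054.2 mg/kg (limma adjusted p = 0.200), and none of the 22 passed, with 5 at an unadjusted p under 0.05 in limma. The largest difference there was that of Gadd45a, a damage-response gene, at 0.69 (limma adjusted p = 0.0982). At 1054.2 mg/kg it passed with array weights, at 1.10 (limma adjusted p = 8.3e-05). The Gadd45a means did not run in the order of dose. They were 8.86 in controls, 9.71 at 66 mg/kg, 8.85 at 132 mg/kg, 9.02 at 263.6 mg/kg, 8.89 at 527.1 mg/kg and 9.55 at 1054.2 mg/kg. The lowest rat at 66 mg/kg, at 9.50, lay above the highest control, at 9.23, and Gadd45a did not pass at that dose. In the slope, Bbc3 and Siva1 passed, both higher.

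Among p53 targets for repair and metabolism, 17 of 22 were measured and 1 passed, Ddit4, which encodes an inhibitor of mTORC1. It rose by 1.68 ± 0.31 (SE) at 527.1 mg/kg (limma adjusted p = 0.00697) and by 1.59 ± 0.31 (SE) at 1054.2 mg/kg (limma adjusted p = 0.00602). The second call was lost without 1054.2 mg/kg replicate 3 (limma adjusted p = 0.0596). The median change of the 17 genes at 1054.2 mg/kg was 0.06 against 0.00 over all genes.

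Among the genes on which p21 acts and their relatives, 6 passed at 527.1 mg/kg, 17 did not, and none passed at 1054.2 mg/kg, a difference that itself did not pass. Of the 23 cyclins, cyclin-dependent kinases, kinase inhibitors and pocket-protein partners, all measured, 6 rose at 527.1 mg/kg and none fell, and Cdk2, Cdk4, Ccnd1, Ccne1, E2f1 and Rb1 were among the 17 that did not pass. Cdk1, the kinase that drives mitosis, rose by 1.84 ± 0.38 (SE; limma adjusted p = 0.0145). Cdkn3, a phosphatase of cyclin-dependent kinases, rose by 2.58 ± 0.39 (SE; limma adjusted p = 0.00158). The cyclins Ccna2 and Ccnb1 rose by 1.87 and 1.46, and the INK4 inhibitors Cdkn2c and Cdkn2d by 0.51 and 0.55. Without 527.1 mg/kg replicate 1, Cdkn3 kept its call, and the other 5 lost theirs. Calls were also lost without 527.1 mg/kg replicate 2 for Cdkn2d, Cdkn2c and Ccna2, without replicate 3 for Cdk1, Cdkn2c and Ccna2, and without control replicate 1 or 4 for Cdkn2c and 1, 2, 3 or 4 for Ccna2.

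None of the 23 genes passed at 1054.2 mg/kg in limma, while 6 had an unadjusted p under 0.05. Cdk1 then stood 0.84 ± 0.38 (SE) above control (limma adjusted p = 0.293), and it passed without 1054.2 mg/kg replicate 1, at 1.44 (limma adjusted p = 0.0224), and with array weights, at 1.29 (0.000716). In the direct comparison of the 2 highest doses none of the 23 passed in limma, with 5 at an unadjusted p under 0.05, against 6.08% of all probe sets. The slope passed for 4, all higher: Cdk1, Ccnb1, Cdkn2c and Cdkn2d.

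The 8 proliferation markers, which share Cdk1, Ccna2 and Ccnb1 with that list, averaged 5.83 to 6.35 in controls and 7.04 to 7.72 at 527.1 mg/kg, where 6 of the 8 rose. At 1054.2 mg/kg their averages were 5.81, 7.22 and 6.93 in the 3 rats, and none passed in limma, with 5 at an unadjusted p under 0.05. The average of 5.81, in replicate 1, was just below the lowest control average of 5.83. Cdkn1a read 8.23 in that rat and 8.20 and 8.08 in the other 2. The group means of these markers were 5.98 in controls and 6.44, 6.60 and 6.92 at 66, 132 and 263.6 mg/kg. At 263.6 mg/kg, 1 of the 8 was called. Their part in the Cdkn1a change was not tested.

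The path below the Fas receptor showed no call. Of its 8 listed genes, 6 were measured, and 0 passed at 527.1 mg/kg, at 1054.2 mg/kg and in the slope, with 0 at an unadjusted p under 0.05 in limma at each. The largest difference at 1054.2 mg/kg was that of Casp8, the initiator caspase, at 0.13 (limma adjusted p = 0.734).

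Among relatives of the members in the Btg, Phlda, cyclin G, Tp53inp and Bcl2 families, 20 of 21 were measured and 2 passed at both high doses and in the slope. Bcl2l11, which encodes the pro-apoptotic protein Bim, rose by 0.70 ± 0.16 (SE) at 527.1 mg/kg (limma adjusted p = 0.0256) and by 1.10 ± 0.16 (SE) at 1054.2 mg/kg (limma adjusted p = 0.00034). It had 3 probe sets, of which 1 passed at 1054.2 mg/kg, with changes from -0.20 to 1.10. Tp53inp2, an autophagy factor related to Tp53inp1, fell by 0.43 at 527.1 mg/kg and by 0.51 at 1054.2 mg/kg (limma adjusted p = 0.0319 and 0.00551), with 1 of its 2 probe sets past the threshold at the higher dose. The calls at 527.1 mg/kg were lost without control replicate 3 or without any of the 3 dosed rats for both genes, and for Tp53inp2 also without control replicate 1, 4 or 5. That of Tp53inp2 was also lost with median centring (0.0541).

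None of the 6 lists had a call at 66, 132 or 263.6 mg/kg. In limma at an unadjusted p under 0.05, the cell cycle list had 1, 6 and 8 of its 23 genes at these doses. The p53 regulators had 0, 4 and 0 of 13, and the relatives of the members 0, 2 and 3 of 20. The targets for arrest and cell death had 2, 2 and 2 of 22, and those for repair and metabolism 1, 2 and 3 of 17. The Fas pathway had 0, 0 and 1 of 6. Over all probe sets the shares were 3.24%, 14.9% and 11.9%.

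**Figure D4:**
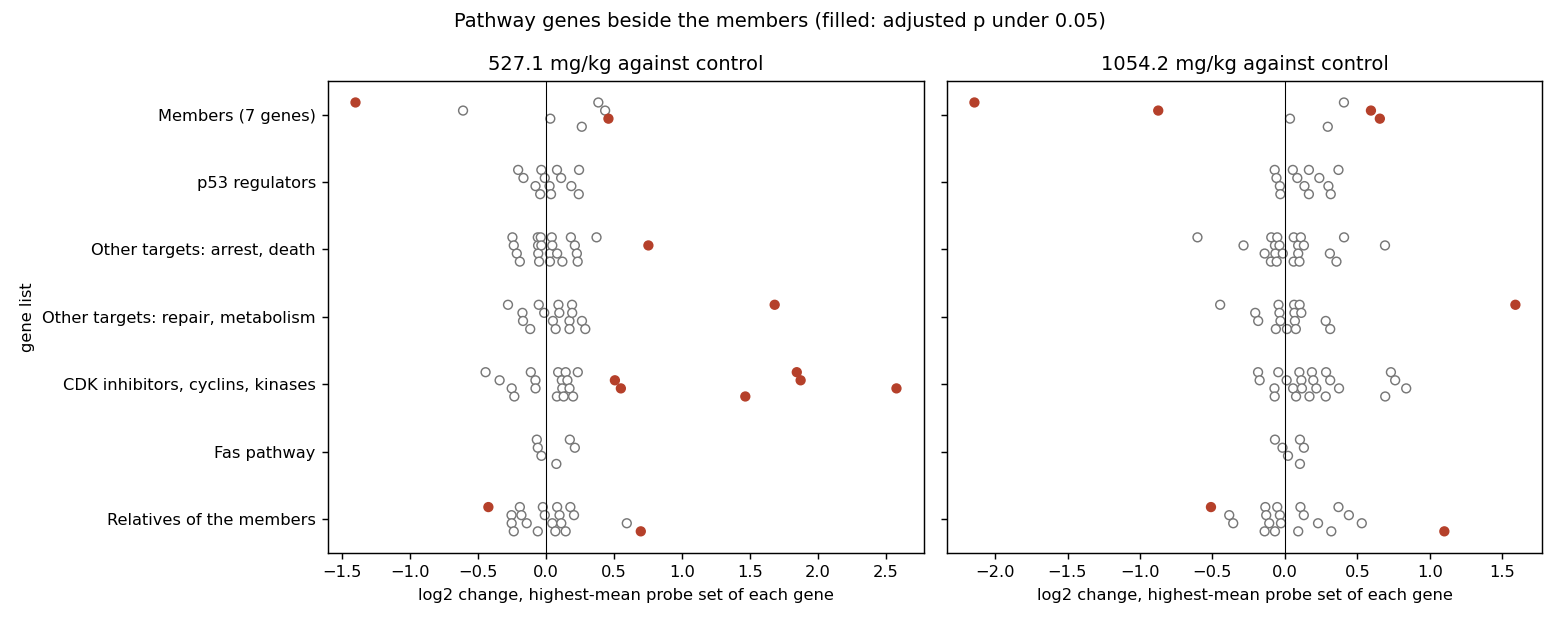
Log2 change from control (horizontal axes) at 527.1 mg/kg and 1054.2 mg/kg of each measured gene, by its brightest probe set, in the 7 members and the 6 lists of related genes (vertical axis); filled points have an adjusted p under 0.05 in limma. The 6 filled points of the cell cycle list at 527.1 mg/kg, from 0.51 to 2.58, have no filled counterpart at 1054.2 mg/kg.

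Markers of some other liver cells were lower at several doses. Of 9 measured Kupffer cell and macrophage markers, 6 fell at 1054.2 mg/kg and none at 527.1 mg/kg, where limma gave 8 an unadjusted p under 0.05. Their average log2 level ranged from 9.73 to 10.23 in controls, from 9.47 to 9.73 at 527.1 mg/kg and from 9.35 to 9.46 at 1054.2 mg/kg, and their median change at 1054.2 mg/kg was -0.54. At 132 mg/kg their median change was -0.59, and their averages of 9.39 to 9.58 lay below every control. None passed there, and 7 of 9 had an unadjusted p under 0.05 in limma, against 14.9% of all probe sets. The 132 mg/kg group also had the largest mean 3'-minus-5' signal gap, 2.31 ± 0.89 (SD, n = 3), against 1.64 in controls. Stellate cell and fibroblast markers fell in 4 of 8 at 1054.2 mg/kg, with averages of 7.87 to 8.34 in controls and 7.71 to 7.84 there. Their median change was -0.52 at that dose and -0.62 at 263.6 mg/kg. At 263.6 mg/kg none passed, and limma gave 6 of 8 an unadjusted p under 0.05, against 11.9% of all probe sets. Endothelial markers fell in 1 of 6 at 1054.2 mg/kg and in none at the other doses. Their median change was -0.32, -0.26, -0.33, -0.33 and -0.35 from the lowest dose to the highest. At 66, 132 and 263.6 mg/kg limma gave 5, 2 and 4 of the 6 an unadjusted p under 0.05, against 3.24%, 14.9% and 11.9% of all probe sets. A cholangiocyte marker rose at both high doses in 1 of 4. None passed at the 2 highest doses among 8 T and NK cell, 2 B cell, 3 neutrophil and 2 erythroid markers, where limma gave 1 neutrophil marker at 527.1 mg/kg and 2 erythroid markers at 1054.2 mg/kg an unadjusted p under 0.05. At 263.6 mg/kg 1 of the 3 neutrophil markers was called, higher, and their median change was 1.19. The neutrophil averages there, 6.17 to 7.07, lay above those of the controls, 5.48 to 5.92. In whole liver, fewer cells of a type and less RNA per cell cannot be told apart, and the part of these cells in the falls of Cdkn1a and Phlda3 was not tested.

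The genes whose profile over the 20 arrays was most like that of Cdkn1a were Tubb2a, a beta-tubulin, Sdc4, a heparan sulfate proteoglycan of the cell surface, Rnf8, a ubiquitin ligase, and Tpst2, a tyrosine sulfotransferase, with Pearson's r of 0.91, 0.91, 0.88 and 0.88. Tubb2a changed by -2.26 ± 0.17 (SE) at 1054.2 mg/kg in limma. The most opposite profiles were those of Cobl, an actin nucleator, and Osbpl11, an oxysterol-binding protein relative, at -0.96 each. For Mdm2 the most alike were Htatip2, Dbp, Aox1 and Txnrd1, at 0.91, 0.90, 0.88 and 0.88. Dbp, a clock-controlled transcription factor, rose by 3.44 ± 0.27 (SE) at 1054.2 mg/kg in limma, and Npas2, a partner in the core clock, ran opposite to Mdm2 at -0.91, as did Lgalsl at -0.92. These correlations describe 20 arrays that share their dose groups, and the genes were selected for them from all named genes.

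The members were also compared among rats given the same dose. After removal of dose-group means, Pearson's r with the 6 other genes over 20 arrays ran from -0.47 for Fas to 0.34 for Tp53inp1. No pair passed a permutation test within dose groups after adjustment over the 6 pairs. The nearest was Tp53inp1, with r = 0.34 (permutation p = 0.141, adjusted 0.491) and Spearman's rho = 0.51 (permutation p = 0.0200, adjusted 0.120). For Fas the values were r = -0.47 (permutation p = 0.206, adjusted 0.491) and rho = -0.39 (permutation p = 0.189, adjusted 0.445). Without the 2 arrays with the most extreme Cdkn1a deviation, control replicate 5 and 263.6 mg/kg replicate 3, r was 0.55 for Tp53inp1 and -0.32 for Fas. With the dimmer Cdkn1a probe set in its place, r with Fas was -0.56 (permutation p = 0.0231, adjusted 0.138). The 2 probe sets of Cdkn1a themselves gave r = 0.31 (permutation p = 0.275) and rho = 0.31 (permutation p = 0.259), and 0.26 for r without the 2 most extreme arrays, so a missed threshold here does not show that members vary independently.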

How the data were processed

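The authors deposited 1 table of log2 intensities for 31099 probe sets on 20 arrays. Per the submitters' processing notes it was made with RMA, whose version and array set are not given in the sources. RMA equalises the arrays' distributions, so a shift shared by most genes cannot be seen. The 57 control probe sets were left out, and 31042 were tested: 20826 with 1 symbol in GEO's platform annotation, 436 with several and 9780 unnamed. Groups came from the dose in the labels, which give no batch.

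Limma 3.58.1 in R 4.3.3 fitted 1 mean per dose group (14 residual and 5.75 prior degrees of freedom), or a slope on dose rank 0 to 5, with Benjamini-Hochberg adjustment and a threshold of 0.05. The scripts were tested on simulated data. A gene counts as called where at least 1 probe set passes; listed genes are read from their brightest probe set.

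The members, lists and markers were chosen with earlier results of these data known. From each list, up to 4 passing genes with the largest change at 1054.2 mg/kg are named, or the 1 with the largest change where none passed. Bbc3, Siva1 and the cell cycle genes other than Cdk1 were chosen after their values were seen. For likeness, the 4 highest and 2 lowest Pearson's r were named, passing over symbols that are only locus identifiers. Precision is limited by 3 rats per dose.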

Additional observations from a re-analysis of the deposited data

How the results depend on the processing

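Most single values kept their direction and side of the threshold: of 1141 alternatives of single values, 1052 did, 61 lost a call, 12 gained one and 16 turned sign. The signs that turned belonged to values near 0. For 1383485_at of Mdm2 at 527.1 mg/kg, the replicate block gave -0.040, and leaving out 1 array gave -0.025 to 0.11. For Ccng1 at 527.1 mg/kg, a second quantile normalisation gave -0.0091 and leaving out 1 array -0.081 to 0.15; at 1054.2 mg/kg, quantile normalisation gave -0.010, array weights -0.16 and leaving out 1 array -0.12 to 0.13. For 1369900_at of Fas at 1054.2 mg/kg, median centring gave 0.013, quantile normalisation 0.011, the 3' minus 5' covariate 0.0045, and leaving out 1 array -0.15 to 0.082. At 527.1 mg/kg, array weights gave 4 member genes past the threshold, adding Phlda3 and Fas, and the replicate block gave 1, in place of 2; leaving out 1 array gave 1 to 2. The second Mdm2 probe set, 1384427_at, passed there with quantile normalisation (limma adjusted p = 0.0453), array weights (0.0290) and 2 groups alone (0.0228). With array weights, 1 member, Mdm2, passed between the 2 highest doses, in place of 0. The slope without the controls passed for 2 members, in place of 5, with Phlda3, Fas and Tp53inp1 no longer past the threshold, and leaving out 1 array gave 4 to 5. Leaving out 1 array gave 0 to 1 member genes at 263.6 mg/kg, 2 to 5 at 1054.2 mg/kg, and 3 to 5 in the exact permutation test, in place of 4. The cause of these changes was not tested.

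The labels do not say that rats with the same replicate number were paired. Of 45 pairs of same-numbered rats, 15 had deviations that correlated above 0.1, with a range from -0.35 to 0.47. Rats with different numbers were not compared, so this count does not decide whether the numbers pair the rats. Besides the values above, the replicate block ended the calls at 527.1 mg/kg of Mdm2 (limma adjusted p = 0.0565), Bcl2l11 (0.0804), Tp53inp2 (0.159, and 0.0531 at 1054.2 mg/kg), Cdkn2c (0.0893) and Ccna2 (0.0802), and that of Tp53inp1 in the slope (0.0552). With it Gadd45a passed at 1054.2 mg/kg, at 0.93 (0.0237). A prior variance that follows the mean level also ended that of Ccna2 (0.102).

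Median centring moved the median change of all probe sets by at most 0.04. Dim probe sets had no value once probe sets below the median level of 6.37 were left out. The exact permutation test was repeated with median centring and with 1 array left out, and the covariation with the other Cdkn1a probe set only; the fit of 2 groups alone was not run for the slope.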
